A study of Drosophila melanogaster with 4 samples.

Results

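The regions described here lie in the distal 10% of the X chromosome of Drosophila melanogaster, the segment next to the telomere, and were enriched for H3K79me1 in adult heads. They were chosen by position only, as every enriched region on the X whose midpoint lay at or below position 2242282 of FlyBase release 5. The combined list of the authors held 251 such regions of 2040 on the X and 12942 in all. The replicate 1 list held 162 of 987 on the X and 7603 in all, and the replicate 2 list held 157 of 892 and 8137. The other regions of the X served as the background. The segment was chosen with an earlier result of these data known, namely that it was the most covered of 10 equal bins of the X, so that rank is a description and not an independent finding.

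The measurements come from chromatin immunoprecipitation and sequencing (ChIP-seq) of nuclei from heads of wild-type Oregon-R flies, a standard laboratory strain. All samples share this strain, genotype and a mixed adult stage. The 4 libraries were 2 ChIP replicates and, for each, an input of genomic DNA, and the inputs enter only through the region calls. Nothing in the labels states that the replicates were collected separately, so their spread may be technical. Whole heads mix neurons, glia, photoreceptors and other cells, so a mark on fewer cells and a weaker mark per cell cannot be told apart. Library depth is unknown. Each interval on a share of regions is a 95% Wilson interval, covers counting error only and takes regions as independent.

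H3K79me1 is the monomethyl form of lysine 79 in the globular core of histone H3. In flies, grappa encodes the Dot1-type enzyme that methylates this residue, and the mark is usually found over the bodies of transcribed genes. The tip of the X is known for yellow (y), which is needed for dark cuticle pigment, and for the neighbouring achaete-scute complex, whose proneural transcription factors (ac, sc, l(1)sc and ase) act early in the making of the nervous system. It also carries genes that are active in mature neurons, such as elav, an RNA-binding protein, and Appl, the fly relative of the amyloid precursor protein, and the ecdysone-response factor gene br. The RefSeq gene table, which is on release 6, orders them from the telomere as y, ac, sc, l(1)sc, ase, elav, Appl and br. It matched 24 of 25 genes of the distal X listed from general knowledge, all on the X. Gene models of release 5 were not used here, so no region below is assigned to a gene.

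H3K79me1 regions covered the distal segment of the X more densely than the remainder. In replicate 1, 19.2% of its sequence lay inside regions, against 9.64% of the rest of the X. Replicate 2 gave 17.8% and 8.48%. The mean over the replicates was 18.5% ± 0.998 (SD, n = 2) in the distal segment and 9.06% ± 0.821 in the rest, and neither distal value overlapped the values of the rest. The ratio was 2.04 ± 0.0747 (SD, n = 2). In the combined list the covered shares were 36.6% and 22.2%, a ratio of 1.65. The exact paired permutation test over the replicates gave a two-sided p of 0.5, which is the smallest that n = 2 allows.

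In the replicate lists the excess lay mostly in the number of regions, and in the combined list about equally in their number and mean width. Replicate 1 had 72.2 regions per Mb in the distal segment and 40.9 in the rest of the X. Replicate 2 had 70.0 and 36.4, so the density ratio was 1.84 ± 0.11 (SD, n = 2). The combined list had 112 and 88.6 regions per Mb, a smaller ratio of 1.26. Median widths were 1938 bp and 1861 bp in replicate 1, and 2080 bp and 1815 bp in replicate 2. The mean difference of 171 bp was close to its own spread (SD 133, n = 2), with an exact two-sided permutation p of 0.5. In the combined list the medians were 2067 bp and 1729 bp. The ratio of mean widths was 1.30 there, against 1.12 in replicate 1 and 1.09 in replicate 2.

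Regions of at least 5 kb were more frequent on the distal X than on the rest of it. They numbered 37 of 251 in the combined list (14.7%, against 8.83% of the rest of the X and 15.4% over the genome). In replicate 1 they numbered 13 of 162 (8.02%, against 4.61% of the rest of the X and 10.9% over the genome). In replicate 2 they numbered 9 of 157 (5.73%, against 4.08% and 11%). The share of wide regions on the distal X was therefore below that of the genome in all 3 lists. Wide regions held 44.3% of the covered length of the distal segment in the combined list and 30.1% of that of the rest of the X. Of the 20 widest combined regions on the X, 7 were in the distal segment, which held 12.3% of all X regions. The same count was 4 in replicate 1 and 5 in replicate 2, where the distal segment held 16.4% and 17.6% of X regions.

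The score that the authors gave each region, treated as a log2 value with an unknown constant, was a little higher in the distal segment. The median was 0.78 in replicate 1 against 0.75 in the rest of the X, and 0.80 against 0.76 in replicate 2. The mean difference was 0.03 ± 0.01 (SD, n = 2; exact two-sided permutation p = 0.5). In the combined list the medians were 0.56 and 0.53. Ranked among all regions of the genome, the median distal region stood at the 75.3 percentile of replicate 1, the 87.5 of replicate 2 and the 78.4 of the combined list. The rest of the X stood at 70.4, 81.9 and 72.4, so high ranks were shared by the whole chromosome. Of the 20 highest-scoring regions of the X, the distal segment held 1 in the combined list, 3 in replicate 1 and 7 in replicate 2. Of the 50 highest it held 9, 9 and 13. It held 12.3%, 16.4% and 17.6% of all X regions in these lists. Wider distal regions scored higher. Spearman's rho was 0.66 over 162 regions in replicate 1, 0.71 over 157 in replicate 2 and 0.48 over 251 in the combined list. In the rest of the X it was 0.54, 0.51 and 0.30, so the direction was shared by the whole chromosome. These regions share libraries and are not independent replicates.

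The neighbouring bin of the X was also well covered. With the X divided into 10 equal bins from the telomere, the first and second bins were covered to 36.6% and 33.0% in the combined list, 19.2% and 14.5% in replicate 1, and 17.8% and 11.5% in replicate 2. No other bin passed 28.0%, 13.7% and 12.5%, values that belong to the seventh bin. The second bin had more combined regions than the first, at 125 per Mb against 112, but they were narrower, with median widths of 1823 bp and 2067 bp. In both replicate lists the first bin had the highest density. On autosomal arms the telomeric bin stood out less. Its coverage over that of the rest of the arm was 1.35 and 1.27 in replicates 1 and 2 on 2L, 1.29 and 1.31 on 3L, 1.01 and 1.07 on 3R, and 0.926 and 1.06 on 2R, against 1.99 and 2.09 on the X. In absolute terms the telomeric bins of these arms were covered in the replicate lists to between 20.6% and 27.0%, all above the distal X.

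**Figure D1:**
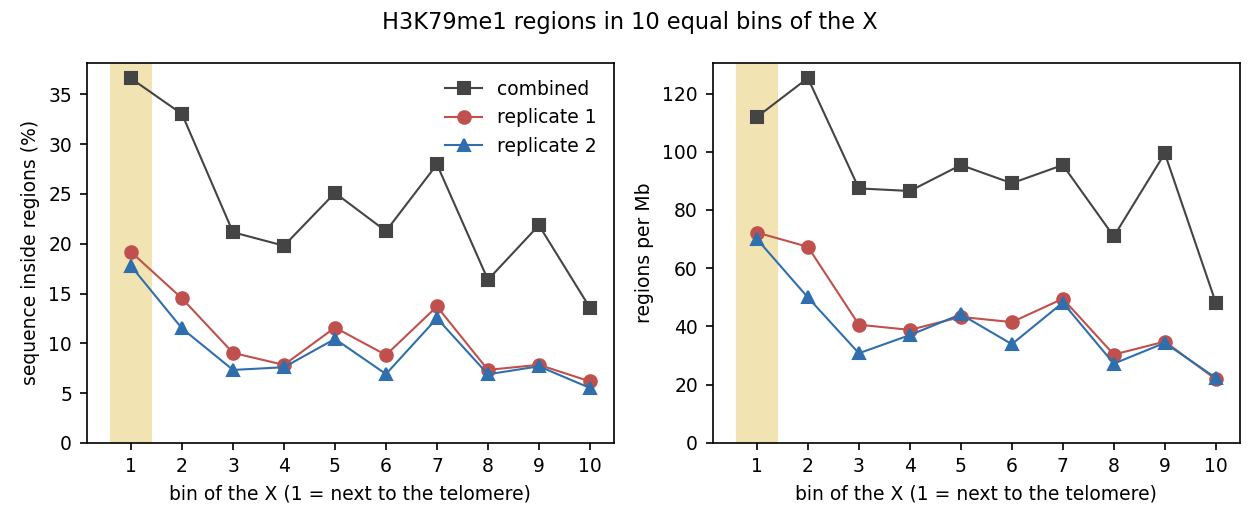
Share of sequence inside H3K79me1 regions (left, percent) and regions per Mb (right) in 10 equal parts of the X, from the telomere (1) to the centromere (10), for the combined list (squares), replicate 1 (circles) and replicate 2 (triangles). The shaded first bin had the highest coverage in each list (36.6%, 19.2% and 17.8%), and the second bin had more combined regions per Mb (125 against 112).

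Coverage was uneven within the segment, with little next to the telomere. The first region of the combined list lay on X from 6612 to 9336, with a log2 score of 0.36 (rank 1999 of 2040 on the X) and no base in either replicate list. The first region of replicate 1 was at 29071 to 33562 (4.49 kb, log2 score 0.87), and it had no counterpart in replicate 2. The replicate 2 list began only at 145587, with a region of 1836 bp that lay wholly inside a replicate 1 region. No list held any region from 197917 to 364685. This stretch of 167 kb was the longest without a combined region in the segment and the second longest on the whole X, after one of 245 kb. In replicate 1 the gap ran from 165943 to 364879 (199 kb) and in replicate 2 from 183548 to 371224 (188 kb).

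A split at the end of that stretch was made after the values were seen. On its telomere side, 365 kb held 16 combined, 7 replicate 1 and 5 replicate 2 regions and were covered to 10.4%, 5.30% and 3.04%. The remaining 1878 kb were covered to 41.7%, 21.9% and 20.6%. The strip on the telomere side was thus covered below the mean of the rest of the X. It was cut to include the empty stretch, which lowers its share by construction. From 100001 to 200000 coverage was 21.7% in the combined list, 11.6% in replicate 1 and 11.1% in replicate 2. The rest of the X had 22.2%, 9.64% and 8.48%. From 1 to 100000 it was 16.4% in the combined list and 7.73% in replicate 1, with no base in replicate 2. The high coverage of the distal segment came from the larger part after the empty stretch. Scores showed a smaller or no step. Median log2 scores on the telomere side and in the remainder were 0.55 and 0.56 in the combined list and 0.80 and 0.80 in replicate 2, but 0.70 and 0.78 in replicate 1, each over few regions on the telomere side.

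Other long stretches without a combined region lay from 70581 to 138301 (67.7 kb), from 1813925 to 1864137 (50.2 kb), from 421711 to 469915 (48.2 kb) and from 1193449 to 1232419 (39.0 kb). Neither replicate had a region in the first of these. The second and the fourth each overlapped 1 replicate 2 region, with 1.41 kb and 1.43 kb of it inside, and the third overlapped a replicate 1 region by 0.122 kb. Stretches that were empty in a single replicate could hold regions of the other. Replicate 1 had none from 1578359 to 1673531, where replicate 2 had 3 regions over 5.34 kb, and replicate 2 had none from 1 to 145586, where replicate 1 had 5 over 10.4 kb.

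In windows of 100 kb the replicates gave similar profiles. Over the 22 full windows of the segment, which are neighbours and not independent, Spearman's rho between the covered shares of the replicates was 0.85 and Pearson's r was 0.89. Over the 202 other windows of the X the values were 0.88 and 0.89. The median window was covered to 17.7% in replicate 1 and 16.3% in replicate 2, against 6.96% and 6.17% in the rest of the X. In the combined list 5 of the 22 windows (22.7%) were covered to at least 50%, against 15 of 202 (7.43%). The window from 1400001 to 1500000 was covered to 67.6% in the combined list, 46.3% in replicate 1 and 43.9% in replicate 2. Among 224 windows of the X it ranked 4, 1 and 2 in these lists. The window from 1800001 to 1900000, by contrast, held only 10.3%, 1.82% and 1.41%. Among the full windows of the segment the replicates differed most in that from 800001 to 900000, with 18.6% in replicate 1 and 32.1% in replicate 2.

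**Figure D2:**
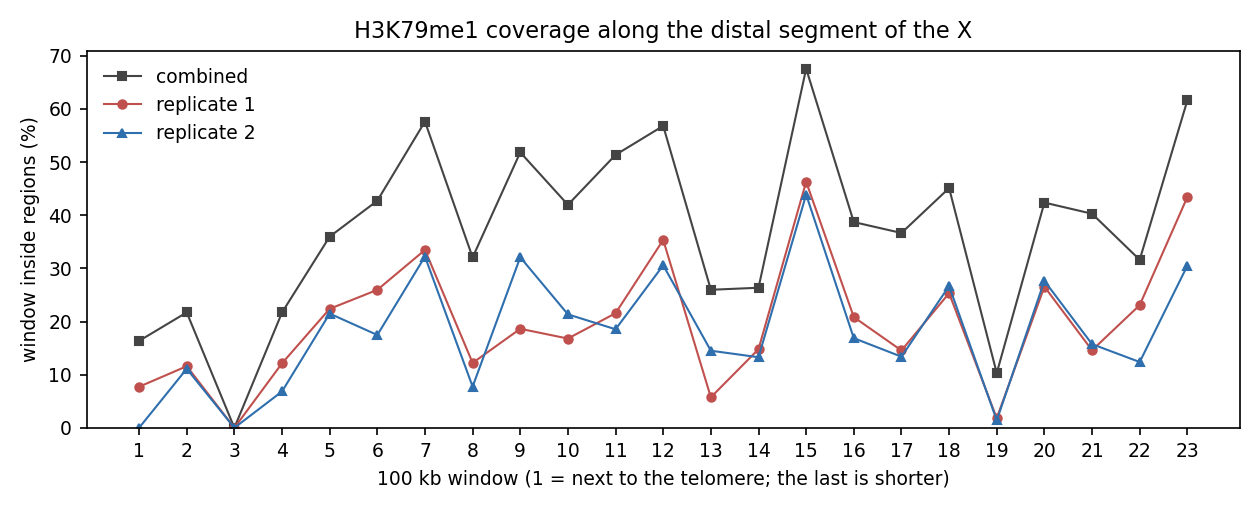
Share of each 100 kb window inside H3K79me1 regions (percent) along the distal segment of the X, from the telomere (window 1) to its inner end (window 23, 42.3 kb long), in the combined list and in each replicate. Window 3 held no region in any list, and window 15 was the most covered in each (67.6%, 46.3% and 43.9%).

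The widest combined region of the whole X was in this segment. It spanned 30.5 kb from 619168 to 649618 and scored 0.74 on the log2 scale. In replicate 1, 6 separate regions covered 71.7% of it, and in replicate 2, 8 covered 70.9%, so neither replicate showed it as 1 block. The second widest spanned 20.1 kb from 1138780 to 1158912 (log2 score 0.88). Replicate 1 covered 88.7% of it and replicate 2 only 64.0%. The third spanned 20.0 kb from 1417482 to 1437488 and had the highest score of the segment, 1.05. The replicates covered 87.7% and 90.6% of it, with 4 regions each.

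Next came 16.7 kb from 940552 to 957222, of which replicate 1 covered 40.3% and replicate 2 covered 66.3%. The 15.9 kb from 1038960 to 1054866 were covered to 65.2% and 46.6%. Near the inner end of the segment, 15.4 kb from 2211262 to 2226692 were covered to 72.2% and 54.1%. These 3 domains were thus marked in both replicates but to unequal extents, and replicate 1 was the higher in the last 2. The 15.3 kb from 1688432 to 1703742 were covered to 53.1% and 82.5%. A neighbouring pair of domains lay at 1919292 to 1933048 (13.8 kb, 69.5% and 73.9%) and 1936902 to 1951164 (14.3 kb, 72.2% and 89.4%). The last of the 10 widest, 13.2 kb from 1449452 to 1462602, was covered to 75.7% by 3 replicate 1 regions and to 94.7% by 1 replicate 2 region. Each of the 10 widest had a base in both replicate lists.

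**Figure D3:**
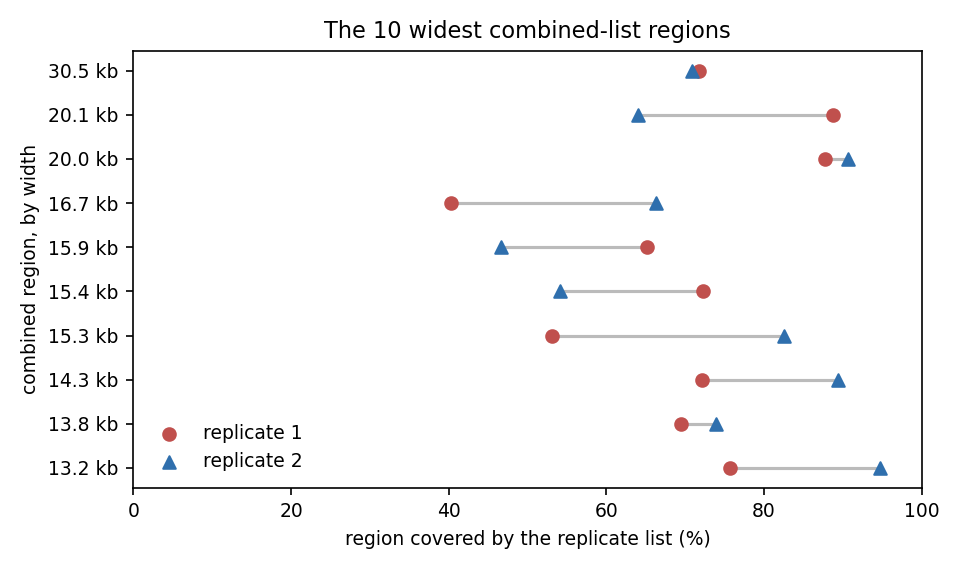
Share of each of the 10 widest combined-list regions of the distal segment of the X that lay inside replicate 1 regions (circles) and replicate 2 regions (triangles), in percent, ordered by width. The widest, 30.5 kb, was covered to 71.7% and 70.9%, and the shares ran from 40.3% to 94.7% over the 10.

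The 3 highest-scoring combined regions of the segment lay side by side. After the region from 1417482 to 1437488 came one from 1437566 to 1449270 (11.7 kb, log2 score 0.99) and one from 1449452 to 1462602 (log2 score 0.97), with spaces of 77 bp and 181 bp between them. With regions joined across spaces of up to 1000 bp, the run reached from 1417482 to 1468176, or 50.7 kb with 6 regions, and ranked 3 in length among such runs on the X. Replicate 1 covered 79.4% of this run with 9 regions and replicate 2 covered 81.7% with 7. The highest-scoring region of each replicate list in the segment was here, at 1429972 to 1437317 in replicate 1 (log2 score 1.27, rank 3 on the X) and at 1424342 to 1429378 in replicate 2 (1.19, rank 3 on the X). The next scores of replicate 2 were also in the run, 1.16 at 1437781 to 1447074 and 1.15 at 1450125 to 1462579, its widest region in the segment at 12.5 kb. Some breaks lay at similar places in the replicates. One space lay between 1423562 and 1424680 in replicate 1 and between 1423638 and 1424342 in replicate 2, and another between 1437317 and 1437762 in replicate 1 and between 1437437 and 1437781 in replicate 2. Others did not match, such as the space from 1455401 to 1458077 in replicate 1, which lay inside a replicate 2 region, and that from 1447074 to 1447565 in replicate 2, which lay inside a replicate 1 region. After 1462602 the run held 3 narrow combined regions, with log2 scores of 0.70, 0.46 and 0.50, where replicate 2 had none.

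**Figure D4:**
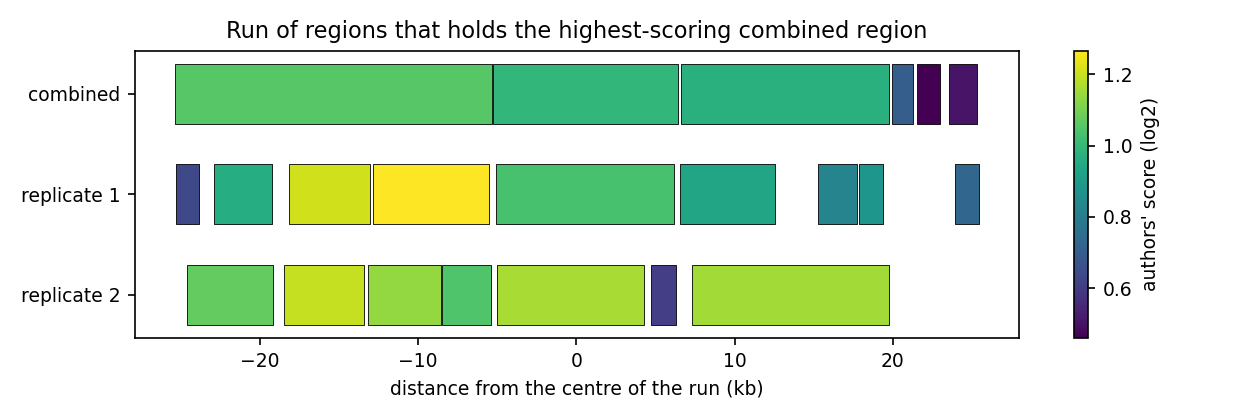
Regions of the 3 lists in the run that holds the 3 highest-scoring combined regions of the segment, as bars placed by distance from its centre (kb) and coloured by the log2 score of the authors. Replicate 1 covered 79.4% of the 50.7 kb with 9 regions and replicate 2 covered 81.7% with 7.

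The fourth and the fifth highest combined-list scores of the segment lay outside this run, on narrower regions. The region from 376378 to 381258 (4.88 kb, log2 score 0.93) was covered to 92.4% and 75.4% by the replicates, with 1 region each. The region from 504444 to 509694 (5.25 kb, log2 score 0.91) was covered to 84.3% and 89.4%. Directly before it, 12.0 kb from 492264 to 504215 formed the widest replicate 1 region of the segment, and 10.8 kb from 491931 to 502710 formed the second widest of replicate 2. These were nearly the same interval, with 96.9% of the replicate 2 region inside that of replicate 1. The third highest score of replicate 1, 1.13, was at 1921458 to 1927026. The very high scores of narrow regions elsewhere on the X, up to 3.30 in the combined list, had no match here, where the highest was 1.05.

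Most replicate regions of the segment had a counterpart. Of the replicate 1 regions in the segment, 105 of 162 (64.8%, 95% Wilson interval 57.2 to 71.7) had at least 1 bp in a replicate 2 region, against 55.5% (52.1 to 58.9) in the rest of the X and 73.5% over the genome. Of the replicate 2 regions, 109 of 157 (69.4%, 61.8 to 76.1) had a base in replicate 1, against 61.4% (57.8 to 64.8) and 68.4%. The intervals of the distal segment and the rest of the X overlapped in both directions. Coverage was 2.04 times as high in the distal segment over the replicates, and its part in the sharing was not tested. By length, 236 kb lay inside both replicate lists, 194 kb in replicate 1 only and 162 kb in replicate 2 only. The Jaccard index, the length in both over the length in either, was 0.398, against 0.338 in the rest of the X.

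Sharing varied with width. All 13 replicate 1 regions and all 9 replicate 2 regions of at least 5 kb had a counterpart (lower Wilson bounds 77.2% and 70.1%). This was the general rate for wide regions, with 37 of 38 and 30 of 30 in the rest of the X. Over the genome it was 99.8% and 99.6%. From 2 to 5 kb the shares were 77.8% of 63 and 76.0% of 75, close to the 73.4% and 80.7% of the rest of the X. Under 2 kb they were 50.0% of 86 (39.7 to 60.3) and 58.9% of 73 (47.4 to 69.5), against 40.4% (36.1 to 44.9) and 47.2% (42.6 to 51.8). In this narrow class the distal share was the higher in both replicates, but the intervals overlapped. Shared regions as a whole had a higher median log2 score than unshared ones in replicate 1 (0.82 and 0.73) and in replicate 2 (0.81 and 0.77). Within width classes this was not so in replicate 2, with 0.71 and 0.71 under 2 kb and 0.84 and 0.89 from 2 to 5 kb. In replicate 1 the medians were 0.71 and 0.69 under 2 kb and 0.85 and 0.85 from 2 to 5 kb. Over all 126 overlapping pairs of the segment, starts differed by a median of 936 bp and ends by 755 bp, against 753 bp and 768 bp in the rest of the X. The 65 pairs with mutual overlap of 50% or more, a rule that selects similar intervals, gave 386 bp and 382 bp, against 412 bp and 435 bp. Spearman's rho between scores was 0.32 over all pairs and 0.51 over the selected ones, against 0.23 and 0.43 in the rest of the X.

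The widest regions without a counterpart were all under 5 kb. In replicate 1 they were at 29071 to 33562 (4.49 kb), 417728 to 421832 (4.11 kb, log2 score 0.81) and 364880 to 368604 (3.73 kb, 0.97). In replicate 2 they were at 1072267 to 1076658 (4.39 kb, 0.89), 2035932 to 2039361 (3.43 kb, 0.76) and 1249089 to 1252454 (3.37 kb, 0.88). Their scores were near or above the median of their lists in the segment.

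The combined list took in nearly all replicate regions of the segment, 162 of 162 from replicate 1 and 154 of 157 from replicate 2. The rest of the X was similar, with 810 of 825 and 719 of 735. Of the 251 combined regions of the segment, 78 (31.1%, 25.7 to 37.1) had a base in both replicate lists, against 20.6% (18.8 to 22.5) in the rest of the X and 33.3% over the genome. A further 49 (19.5%, 15.1 to 24.9) had a base in replicate 1 only, against 17.3% (15.6 to 19.1) in the rest of the X and 12.3% over the genome. Another 31 (12.4%, 8.84 to 17.0) had one in replicate 2 only, against 13.2% (11.8 to 14.9) and 15.9%. The remaining 93 (37.1%, 31.3 to 43.2) had none in either, against 48.9% (46.6 to 51.2) in the rest of the X and 38.5% over the genome. The intervals of the distal segment and of the rest of the X did not overlap for the first and the last of these classes. These intervals take neighbouring regions as independent, so the lack of overlap is no test of a difference. In both classes the distal share stood close to that of the genome.

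The classes differed in width and score. Regions in both replicates had a median width of 4248 bp and a median log2 score of 0.66, and they made up 480 kb, or 58.5% of the combined length of the segment. Those in neither were narrow (median 1281 bp, median log2 score 0.51) and made up 139 kb. The same classes in the rest of the X had similar median widths, 4173 bp in both and 1287 bp in neither. The replicate lists hold no region below 1301 bp, and 47 of the 93 distal regions in neither (50.5%) were narrower than that. That share was 51.3% in the rest of the X and 48.1% over the genome. Only 1 of the 121 combined regions under 2 kb was in both replicates (0.83%, 0.146 to 4.53), at 2195906 to 2197882. In the rest of the X it was 21 of 1124 (1.87%, 1.23 to 2.84), with overlapping intervals. Regions under 2 kb made up 48.2% of combined regions in the segment and 62.8% in the rest of the X. The part of this width mix in the shares over all widths was not tested. From 2 to 5 kb, 46 of 93 were in both (49.5%, 39.5 to 59.4), against 39.4% (35.3 to 43.8) in the rest of the X.

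Among combined regions of at least 5 kb, as among those under 2 kb, the distal share was the lower. In the segment 31 of 37 were in both replicates (83.8%, 68.9 to 92.3), against 93.0% (88.0 to 96.1) in the rest of the X, with overlapping intervals. The 6 exceptions include a region of 10.5 kb from 1054894 to 1065434 (log2 score 0.56), named after its values were seen. In replicate 1, 2 regions covered 38.7% of it, and in replicate 2 it held no marked base. It was the widest combined region with a base in a single replicate list in the whole genome. It followed directly on the 15.9 kb region that ends at 1054866, which both replicates marked. The next was the 7.91 kb region from 28934 to 36840 near the telomere, covered to 76.7% by replicate 1 and not at all by replicate 2. Of the 6, 5 were in replicate 1 only and 1 in replicate 2 only.

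**Figure D5:**
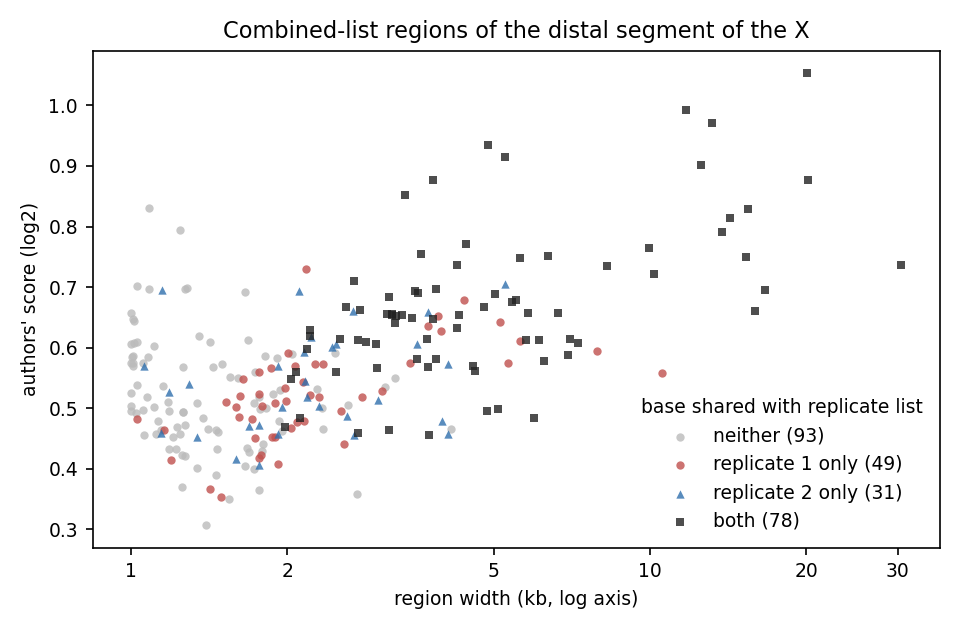
Width (kb, log axis) and log2 score of the 251 combined-list regions of the distal segment of the X, by whether they shared a base with both replicate lists (78, squares), replicate 1 only (49, red circles), replicate 2 only (31, triangles) or neither (93, grey circles). Regions in both had a median width of 4248 bp and those in neither 1281 bp, and 6 regions of at least 5 kb were not in both.

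Some combined regions overlapped several replicate regions. Of the 78 in both lists, 50 overlapped 1 region of each replicate, and 14 overlapped at least 2 of each. These counts were not made for the rest of the X. Up to 6 replicate 1 regions and 8 replicate 2 regions overlapped 1 combined region. The reverse also occurred, as the replicate 1 region from 814011 to 820413 overlapped combined regions at 813718 to 816478 and 816946 to 820570. The median covered share of these 78 was 68.0% by replicate 1 and 65.0% by replicate 2. Regions also stood closer together in the segment. The median space between neighbours was 2357 bp in the combined list, 3236 bp in replicate 1 and 3763 bp in replicate 2, against 2859 bp, 6721 bp and 7967 bp in the rest of the X. Spaces of at most 1000 bp made up 35.6%, 22.4% and 25.0% of all spaces, against 28.2%, 18.3% and 15.8%.

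Just inside the boundary of the segment lay combined regions at 2227452 to 2233796 (6.35 kb, log2 score 0.75) and 2239570 to 2240750 (1.18 kb, 0.51). Just outside lay 2241788 to 2245214 (3.43 kb, 0.54), which begins before the boundary but has its midpoint beyond it, and 2257254 to 2258450 (1.20 kb, 0.59).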

How the data were processed

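H3K79me1 ChIP and input libraries came from adult fly heads. The submitters' processing notes name Bowtie 0.12.7, an aligner. The authors deposited 3 lists of regions, on FlyBase release 5 per the file headers. For the caller, its threshold and the combining of replicates, nothing was given in the sources used here. The deposited score of each region is treated as log2, since between 96.9% and 99.9% of the scores, as powers of 2 relative to the most frequent score, were ratios of whole numbers (denominators up to 5000, relative tolerance 1e-11). Against natural log and log10 these shares stayed at or below 1.18%. Its constant is unknown, so scores describe regions within a list only.

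Joined header lines were split, and 1 region named as depleted was left out. Regions were assigned by midpoint, with coordinates 1-based. Sharing needed 1 bp. Python 3.11.15, numpy 2.4.6, pandas 2.3.3, scipy 1.17.1 and matplotlib 3.10.9 were used, and the overlap code was tested on simulated data. Named regions were the 10 widest and 5 highest-scoring of the combined list, the 3 widest, 3 highest-scoring and 3 widest unshared of each replicate, the 5 longest empty stretches, those nearest the telomere and those at the boundary. Members, lists and rules were chosen with earlier results of these data known. With 2 replicates the exact permutation test used here cannot pass a threshold of 0.05. Alternatives were each replicate alone, other overlap, score and width rules, merging, and other segment sizes.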

Additional observations from a re-analysis of the deposited data

How the results depend on the processing

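In all 33 alternatives the distal segment lay above the rest of the X. The segment was chosen with its high coverage known and the alternatives reuse the same lists, so this count is not independent support. Of the alternatives, 15 moved the value by less than the spread between the replicates. For the combined regions in both lists, the limit was the distance from the centre of the Wilson interval to either end. None of the alternatives compared regions within a width class. The distal share of combined regions in both lists was lower under 2 kb (0.83% against 1.87%) and from 5 kb (83.8% against 93.0%). From 2 to 5 kb it was higher (49.5% against 39.4%). Sharing of replicate 2 regions from 2 to 5 kb was also lower (76.0% against 80.7%), and in the other width classes of either replicate it was not. The coverage ratio of 1.65 was 1.75 for the higher-scoring 50% of regions, 1.74 for regions at least as wide as the narrowest replicate region, 2.30 for bases inside both replicate lists, 1.47 for the distal 5% of the X and 1.57 without its centromeric 10%, and ran from 1.99 to 2.09 in single replicates. The density ratio of 1.26 became 1.13 after merging of regions within 1000 bp and 1.41 for the distal 20% of the X, and ran from 1.77 to 1.92 in single replicates. The ratio of median widths, 1.20, became 1.45 after merging and ran from 1.04 to 1.15 in single replicates. The difference of median scores ran from 0.02 to 0.04 in single replicates. The shared share of replicate 1 regions, 64.8%, was 69.4% for replicate 2 regions, 50.6% with 50% of the region covered and 40.1% with 50% of both. The share of combined regions in both lists, 31.1%, was 20.3% with 50% covered by each list and 39.8% at the minimum replicate width. The cause was not tested. Merging and fewer narrow regions change the counts by construction. Between ChIP and input, no paired analysis was possible because no input library has a region list or signal here. The distal segment and the rest of the X were compared within each replicate. As depth is unknown, differences in the sizes of the lists cannot be interpreted.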
